A study of Pagiophloeus tsushimanus with 15 samples.

Results

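RNA sequencing of whole larvae of the weevil Pagiophloeus tsushimanus was used to compare 2 diets, one holding 30 mg/g of an additive labelled EO and one holding 41 mg/g of D-camphor, with 3 libraries for each. The doses differ, so every difference given here mixes the identity of the additive with its dose. The labels do not say what EO stands for, while D-camphor is a monoterpenoid, a ketone that some plants release. Of 34486 assembled unigenes (clusters of transcripts put together without a genome), the 12442 whose mean reached 1 TPM in these 6 libraries were tested, 9077 of them with a protein description, and 22044 were below that level. TPM is a share of all transcripts in a library, corrected for transcript length. The other 9 libraries of the series come from larvae on a diet free of terpenoids (untreated), or on the lower doses of 10 mg/g of EO and 17 mg/g of D-camphor, with 3 libraries each, and they are used here as reference levels and for the estimate of the spread. The labels do not say whether a library holds 1 larva or several, nor whether replicates were reared apart, so p-values measure only the spread between these libraries, which may be technical.

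As background, insects deal with lipophilic plant compounds in steps. Cytochrome P450 enzymes (P450s) insert oxygen into the compound, epoxide hydrolases open reactive epoxides with water, dehydrogenases and reductases interconvert alcohols and carbonyls, and transferases attach glutathione, sugars or sulphate so that ABC transporters can export the product. In insects the CYP6 family of P450s is known for many enzymes that act on plant toxins and insecticides, and P450s of bark beetles, a group within the weevil family, oxidise monoterpenes. The cuticle, a layer of chitin and cuticle proteins, is the barrier on the outside and is rebuilt at each moult.

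Libraries also differed within groups. On the first principal component of all libraries, which held 23.6% of the variance, replicate 1 of both EO doses (0.53 at 10 mg/g and 0.47 at 30 mg/g) stood apart, as did replicate 2 of D-camphor at 41 mg/g (0.37). The second, with 22.2%, separated the diets compared, with scores of -0.18, -0.32 and -0.17 on EO and 0.33, 0.36 and 0.14 on D-camphor, but untreated replicate 2 had the highest score, 0.44, and untreated replicate 1 scored -0.30. Across the 2 diets compared, the median correlation between libraries was 0.945 within a diet and 0.927 between diets. Between 11478 and 13659 unigenes lay above 1 TPM in a library, and TPM keeps no read depth. Markers of fat body, muscle, haemocytes, nervous system and germ line were all present in the whole bodies: of their 12, 53, 17, 4 and 2 described unigenes, 0 were listed at 0 in all 6 libraries.

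A small set of unigenes separated the diets. By limma on log2(TPM + 1), fitted to all 15 libraries with Benjamini-Hochberg adjustment over the tested unigenes, 16 unigenes passed an adjusted p of 0.05 (called), which is 0.129% of those tested. Of these, 11 were higher on EO (0.0884%) and 5 were lower on EO, that is higher on D-camphor (0.0402%). In all 16 the 3 values of one diet lay outside the range of the other, which the call itself largely brings about. Of the 16, 15 differed at least 2-fold on the log2(TPM + 1) scale. Some passed the level filter only through the diet in which they were high, as given below. Before adjustment, 1409 unigenes (11.3%) had a p under 0.05. The values of the diets did not overlap in 1110 unigenes that were higher on EO (8.92%) and in 1085 that were lower (8.72%). The median difference over all tested unigenes was -0.02 on the log2 scale. The number of calls dropped to 9 when replicate 2 of EO was left out and was 25 when replicate 1 of D-camphor was. Without the 3 libraries that stood apart it was 4, of which 3 were among the 16 (TRINITY_DN9219_c0_g1, TRINITY_DN986_c0_g1 and TRINITY_DN986_c0_g2). The fourth, TRINITY_DN18928_c0_g1, has no description and is named here after its values were seen.

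**Figure D1:**
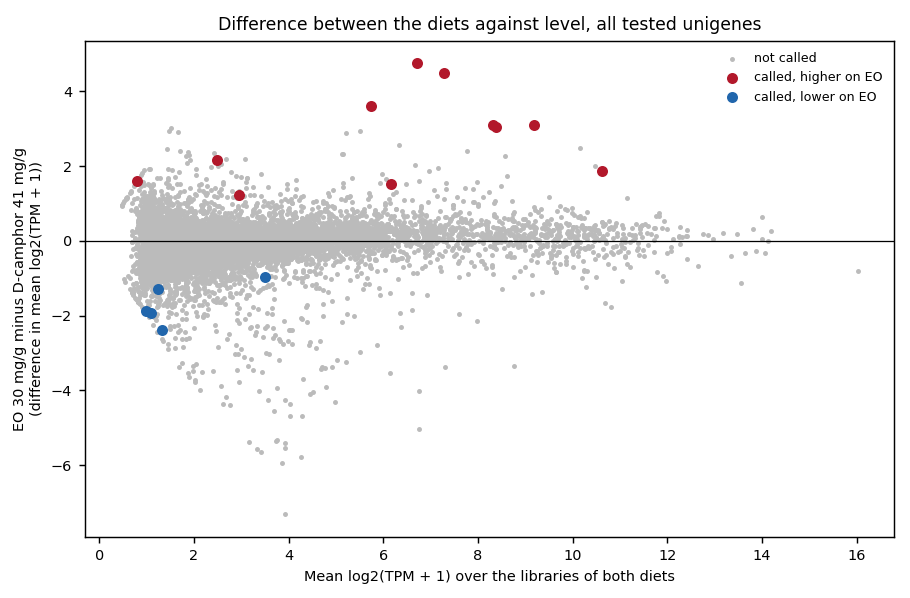
Each point is 1 of the 12442 tested unigenes; the x axis is the mean log2(TPM + 1) over the 6 libraries and the y axis is the mean of EO 30 mg/g minus the mean of D-camphor 41 mg/g on that scale. Red points mark the 11 unigenes called higher on EO, several of them at high levels, and blue points the 5 called lower, 4 of which lie at low levels; the widest uncalled spread is on the lower side.

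Among the unigenes called higher were 4 P450s of the CYP6 family, at least 8.53-fold higher in mean TPM on EO. TRINITY_DN9219_c0_g1, described as cytochrome P450 6a2-like, stood at 681, 588 and 398 TPM on EO 30 mg/g and at 23.8, 18.6 and 15.96 TPM on D-camphor 41 mg/g. Every EO library was far above every D-camphor library, and both diets were above the untreated libraries with their 1.36, 0.70 and 1.76 TPM. Its mean was 28.6-fold higher on EO, a difference of 4.75 ± 0.29 (SE) on the log2(TPM + 1) scale with a 95% confidence interval of 4.13 to 5.37 (limma, adjusted p = 1.27e-05). It was called whichever single library was left out (15 of 15 fits).

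TRINITY_DN12993_c0_g1, described as probable cytochrome P450 6a20, stood at 737, 920 and 595 TPM on EO and at 45.4, 20.4 and 35.0 TPM on D-camphor. In untreated larvae it was listed at 0, 0 and 1.28 TPM, so it was at or near 0 without an additive. The difference between the diets was 4.49 ± 0.51 on the log2 scale (limma, adjusted p = 0.00304). TRINITY_DN32261_c0_g1, also described as 6a2-like, had 131, 271 and 181 TPM on EO and 34.9, 12.6 and 6.30 TPM on D-camphor. Its D-camphor libraries were spread widely, from 6.30 to 34.9 TPM, but stayed below the EO libraries and above the untreated ones, which reached 1.16 TPM at most. The difference was 3.61 ± 0.57 (limma, adjusted p = 0.0342), and it was called in 6 of the 15 fits that leave out 1 library.

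TRINITY_DN1085_c0_g1, described as probable cytochrome P450 6a14, stood at 861, 1163 and 790 TPM on EO and at 144, 89.1 and 96.2 TPM on D-camphor, and untreated libraries had 24.6, 30.04 and 49.2 TPM. It had the highest mean of these P450s in both diets and in untreated larvae. The difference was 3.09 ± 0.35 (limma, adjusted p = 0.00304), and it held in 15 of 15 fits. Together the 4 P450s summed to 2410, 2940 and 1960 TPM on EO, to 249, 141 and 153 TPM on D-camphor and to 26.4, 31.3 and 53.4 TPM in untreated larvae. They thus made up 28.1%, 31.1% and 24.4% of all TPM of P450 unigenes on EO, against 3.68%, 2.73% and 2.45% on D-camphor and 0.458%, 0.542% and 1.23% in untreated larvae. Without the 3 libraries that stood apart, TRINITY_DN9219_c0_g1 was still called (limma, adjusted p = 0.00592), whereas the differences of the other 3 P450s stayed between 3.01 and 4.18 but were not called, with adjusted p between 0.081 and 0.217 by limma.

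**Figure D2:**
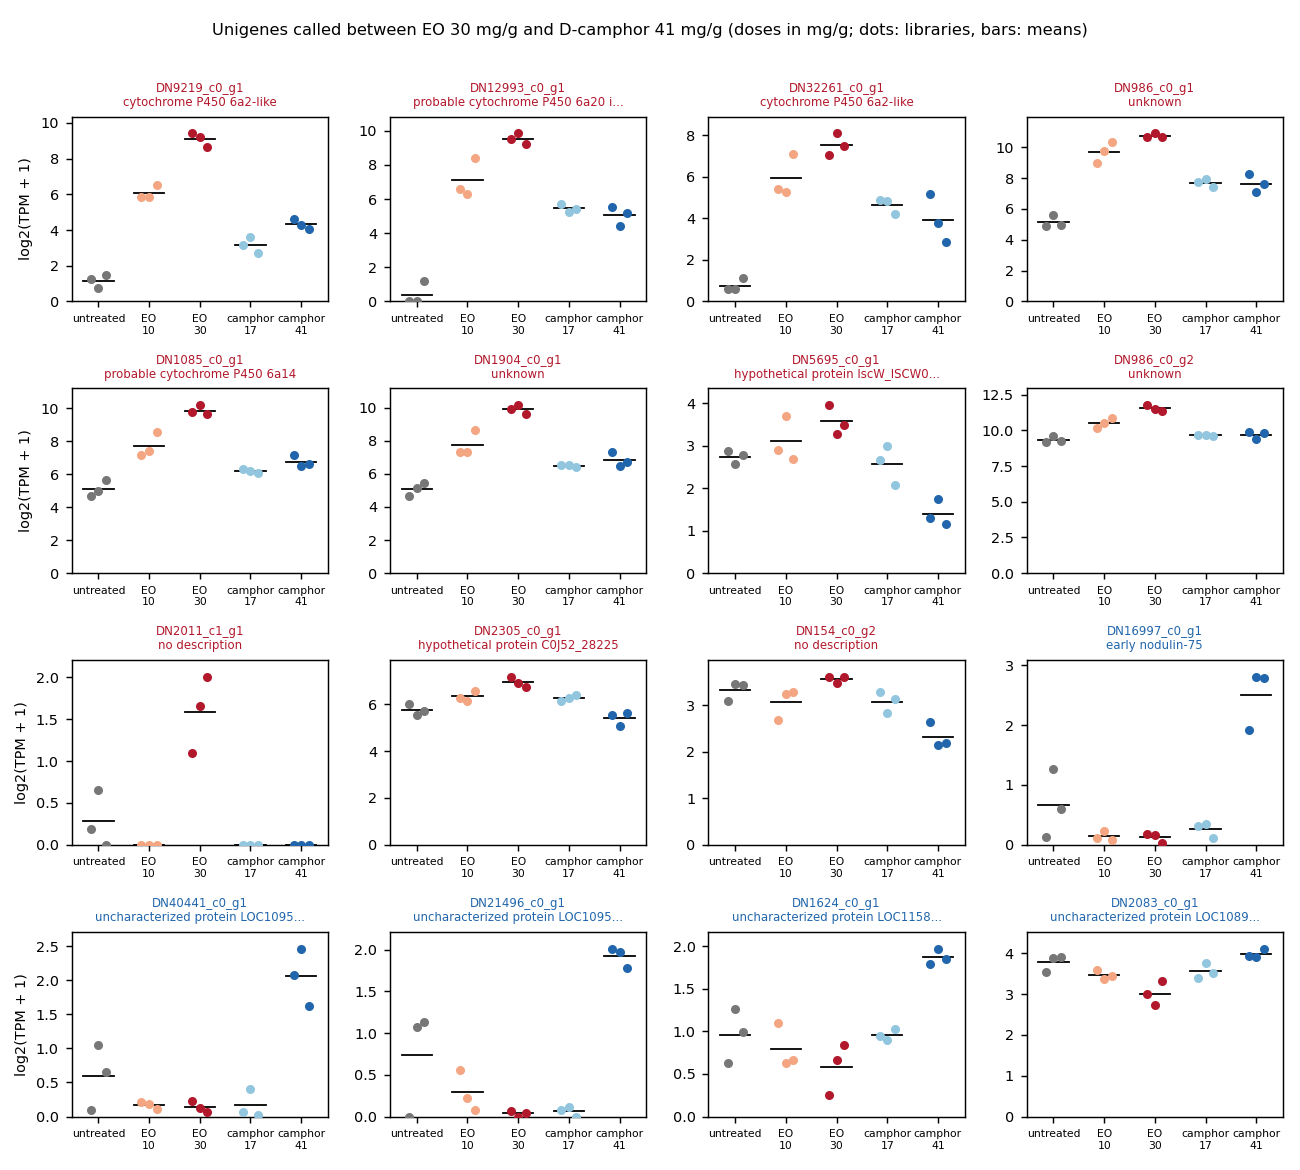
Each panel is 1 of the 16 called unigenes, with log2(TPM + 1) on the y axis and the 5 groups on the x axis; dots are libraries, bars are group means, and numbers under EO and camphor are doses in mg/g. Red titles mark the 11 unigenes higher on EO 30 mg/g than on D-camphor 41 mg/g and blue titles the 5 that were lower.

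The rest of the P450 list differed far less between the diets. The list holds 71 described unigenes, of which 41 were tested and 30 were below the level filter. Of the tested members 4 were called higher and 0 lower, and the differences of the uncalled members ran from -1.15 to 0.96. Over the whole list, with the called members included, 25 had a positive and 16 a negative difference. The values of the diets did not overlap in 12 that were higher on EO (29.3%) and 4 that were lower (9.76%), beside 8.92% and 8.72% of all tested unigenes. The 12 include the 4 called members, so the share among the rest is smaller. The median over the list was 0.15 on the log2 scale, against -0.02 over all tested unigenes. Sorted by the family in the description, a split made after the values were seen, 19 members belong to CYP6 (4 called, median 0.43), 8 to CYP4 (0 called, median 0.17), 4 to CYP9 (0 called, median -0.07) and 10 to other or unnamed families (0 called, median 0.03). Within CYP6 the differences ran from -1.15 to 4.75, so members of the same family lay on both sides. TPM summed over the CYP6 members was 4970, 6220 and 5010 on EO and 3490, 2510 and 3240 on D-camphor, whereas the sums of the CYP9 members overlapped, with 343, 240 and 334 TPM against 350, 344 and 340 TPM. Without the 4 called members the CYP6 sums overlapped too, at 2560, 3280 and 3050 TPM on EO and 3240, 2370 and 3080 TPM on D-camphor.

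Among the other 7 unigenes called higher on EO, 3 matched proteins listed as unknown in the mountain pine beetle Dendroctonus ponderosae and were abundant. TRINITY_DN986_c0_g1 stood at 1590, 1896 and 1642 TPM on EO, at 301, 136 and 190 TPM on D-camphor and at 28.5, 48.0 and 29.4 TPM in untreated larvae, a difference between the diets of 3.10 ± 0.36 (limma, adjusted p = 0.00304). TRINITY_DN986_c0_g2, which shares its assembly cluster, stood at 3473, 2912 and 2659 TPM on EO, at 938, 672 and 877 TPM on D-camphor and at 576, 782 and 613 TPM in untreated larvae, a difference of 1.87 ± 0.20 (limma, adjusted p = 0.00304). Its D-camphor libraries overlapped the untreated ones, while those of TRINITY_DN986_c0_g1 lay above them. TRINITY_DN1904_c0_g1 stood at 951, 1133 and 786 TPM on EO and 160, 87.9 and 105 TPM on D-camphor, a difference of 3.04 ± 0.35 (limma, adjusted p = 0.00304). Its level followed that of the P450 TRINITY_DN1085_c0_g1, with a ratio of TRINITY_DN1085_c0_g1 to it between 0.771 and 1.16 in all 15 libraries, and since the counting of reads shared by similar or overlapping unigenes is not given, neither level is certain on its own.

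The remaining 4 unigenes called higher had no informative description. TRINITY_DN5695_c0_g1, a hypothetical protein, stood at 14.5, 8.72 and 10.2 TPM on EO and at 1.45, 2.36 and 1.24 TPM on D-camphor, 2.17 ± 0.29 apart (limma, adjusted p = 0.0109). TRINITY_DN2305_c0_g1, also hypothetical, stood at 142, 120 and 105 TPM on EO and at 45.8, 32.2 and 47.5 TPM on D-camphor, 1.53 ± 0.18 apart (limma, adjusted p = 0.00429). The undescribed TRINITY_DN154_c0_g2 had 11.2, 10.1 and 11.2 TPM on EO and 5.28, 3.40 and 3.59 TPM on D-camphor (1.23 ± 0.19; limma, adjusted p = 0.0328). Untreated larvae took different positions: for TRINITY_DN5695_c0_g1 and TRINITY_DN154_c0_g2 the untreated libraries, at 4.92 to 6.40 and 7.58 to 9.92 TPM, lay between the diets, and for TRINITY_DN2305_c0_g1 they overlapped D-camphor. The undescribed TRINITY_DN2011_c1_g1 had 1.14, 2.15 and 3.02 TPM on EO and was listed at 0 in all D-camphor libraries (limma, adjusted p = 0.0342), so no fold is given. This unigene passed the level filter through its EO libraries alone. TRINITY_DN154_c0_g2 was called in 8 and TRINITY_DN2011_c1_g1 in 4 of the 15 fits that leave out 1 library.

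Across the 11 unigenes called higher on EO, the 3 untreated libraries lay below all EO 30 mg/g libraries in 11. In 6 of them the untreated libraries also lay below all D-camphor 41 mg/g libraries, and in 2 they lay above. In 9 of the 11 the EO 30 mg/g libraries lay above all 12 other libraries of the series. For TRINITY_DN2011_c1_g1, which is among these 9, the level filter partly sets that position. For all 11, the call itself largely sets the position above D-camphor 41 mg/g. No share over all tested unigenes was taken for these counts. With the filter taken over all 15 libraries, 10 unigenes were called higher.

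Of the 5 unigenes called lower on EO, 4 were at low levels and had means under 1 TPM on EO, so they passed the level filter through their D-camphor libraries alone. In all 5 the 3 D-camphor libraries lay above the 12 other libraries of the series, a position that the filter partly sets for those 4. With the filter taken over all 15 libraries, 3 unigenes were called lower. TRINITY_DN16997_c0_g1, whose match is described as early nodulin-75, a name from plants that may not describe its role in a beetle, stood at 0.14, 0.12 and 0.02 TPM on EO and at 2.78, 5.99 and 5.90 TPM on D-camphor, a difference of -2.38 ± 0.29 (limma, adjusted p = 0.0044). TRINITY_DN40441_c0_g1 and TRINITY_DN21496_c0_g1, both uncharacterized, reached 0.17 and 0.05 TPM at most on EO. On D-camphor the former had 3.23, 4.53 and 2.08 TPM (-1.92 ± 0.27; limma, adjusted p = 0.0128). The latter had 3.04, 2.94 and 2.45 TPM (-1.89 ± 0.27; limma, adjusted p = 0.017). At such levels the added 1 TPM compresses the differences. Leaving out 1 library at a time, TRINITY_DN16997_c0_g1 was called in 15, TRINITY_DN40441_c0_g1 in 13 and TRINITY_DN21496_c0_g1 in 9 of 15 fits.

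The other called unigenes of this direction were nearer to each other on the 2 diets. TRINITY_DN1624_c0_g1, uncharacterized, stood at 0.19, 0.58 and 0.79 TPM on EO and at 2.47, 2.92 and 2.61 TPM on D-camphor (-1.29 ± 0.21; limma, adjusted p = 0.0342). TRINITY_DN2083_c0_g1, uncharacterized, stood at 6.95, 5.65 and 8.92 TPM on EO and at 14.2, 14.1 and 16.3 TPM on D-camphor (-0.97 ± 0.16; limma, adjusted p = 0.0356). Its untreated libraries, at 10.7, 13.9 and 13.9 TPM, were closer to D-camphor than to EO. TRINITY_DN1624_c0_g1 was called in 4 and TRINITY_DN2083_c0_g1 in 3 of the 15 fits that leave out 1 library. With a pseudocount of 0.1 TPM in place of 1, 0 of the 5 were called and 10 unigenes were called in all, 10 of them higher on EO.

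Among unigenes that were lower on EO but not called, the naming rule gives 5 with the smallest p. TRINITY_DN5640_c0_g1, described as a histidine-rich protein, had 1.58, 0.20 and 0.09 TPM on EO and 36.2, 161 and 71.7 TPM on D-camphor, a difference of -5.66 ± 1.02 (limma, adjusted p = 0.0708), but it also had 35.5 TPM in untreated replicate 2 against 0 and 2.51 TPM in the other two untreated libraries. TRINITY_DN14538_c0_g1, hypothetical, had at most 0.19 TPM on EO and 13.5, 25.8 and 7.16 TPM on D-camphor (limma, adjusted p = 0.0708), with 8.38 TPM in untreated replicate 2. TRINITY_DN8872_c0_g1, uncharacterized, had 0.34 to 0.63 TPM on EO and 4.18 to 15.5 TPM on D-camphor, and 4.43 TPM in untreated replicate 2. The means of TRINITY_DN5640_c0_g1, TRINITY_DN14538_c0_g1 and TRINITY_DN8872_c0_g1 on EO were 0.623, 0.117 and 0.49 TPM. They too passed the level filter through their D-camphor libraries alone. The undescribed TRINITY_DN2083_c0_g2 and TRINITY_DN10668_c0_g1 had differences of -1.71 and -1.25. Untreated replicate 2, the library with the highest score on the second component, was thus raised in several of these. It was the highest untreated library in 7 of the 10 named unigenes that were lower on EO, most of which passed the filter through D-camphor alone. It was the highest untreated library in 36.6% of all 1085 unigenes with non-overlapping lower values on EO, in 9.10% of the 1110 with higher values and in 19.8% of all tested unigenes. The part of this library pattern in the result was not tested.

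Of 11 epoxide hydrolases tested, 10 had a positive and 1 a negative difference, although 0 were called by limma and 2 had an unadjusted p under 0.05. These unigenes (3 more of the 14 described were below the level filter) are all described as juvenile hormone epoxide hydrolases, enzymes that inactivate the insect hormone by opening its epoxide and that are related to microsomal epoxide hydrolases of foreign compounds. In 9 of the 11, or 81.8%, all EO libraries lay above all D-camphor libraries, against 8.92% of all tested unigenes, and the median difference was 0.63 against -0.02. TRINITY_DN1820_c1_g1 stood at 282, 222 and 214 TPM on EO, 87.4, 49.96 and 59.4 TPM on D-camphor and 55.4, 41.1 and 29.6 TPM in untreated larvae, a difference between the diets of 1.88 ± 0.35 (limma, adjusted p = 0.0846). TRINITY_DN26755_c0_g1 stood at 406, 472 and 425 TPM on EO, 204, 102 and 149 TPM on D-camphor and 130, 102 and 75.3 TPM in untreated larvae, a difference of 1.56 ± 0.40 (limma, adjusted p = 0.197). In these 2 unigenes the D-camphor libraries lay near the untreated ones and the EO libraries well above both.

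The epoxide hydrolase unigenes moved together from library to library, and as similar sequences they may share reads, so they are not separate pieces of evidence. Their summed TPM was 3960, 4410 and 4410 on EO and 3070, 1810 and 2510 on D-camphor. It ranged from 982 to 2800 TPM in untreated larvae and from 1720 to 4160 TPM on EO 10 mg/g, so libraries of one group could differ by more than the diets did. D-camphor 41 mg/g replicate 2, a library that stood apart, was the lowest of the 6 in 9 of the 11 members. Without the libraries that stood apart, the values still did not overlap in 9 members, all higher on EO, beside 21.7% of all tested unigenes in the same 2 against 2 libraries, and the median was 0.52. At the lower doses the list was not shifted from all tested unigenes, with medians of -0.15 and -0.14. There 1 member had non-overlapping higher values and 0 had lower ones, beside 1.79% and 17.6% of all tested unigenes.

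**Figure D3:**
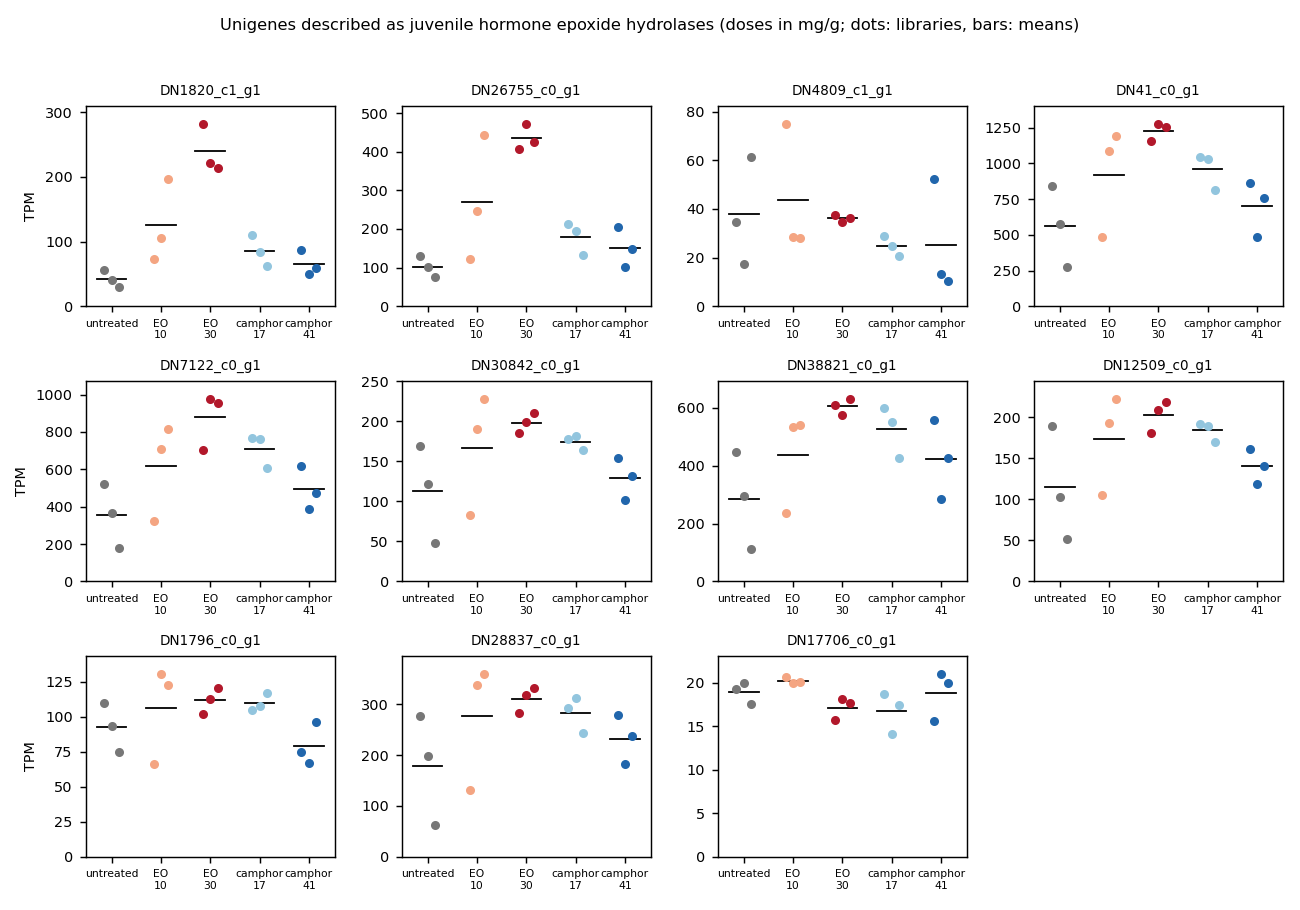
Each panel is 1 of the 11 tested unigenes described as juvenile hormone epoxide hydrolases, with TPM on a linear y axis from 0 and the 5 groups on the x axis; dots are libraries and bars are group means. In 9 panels the 3 EO 30 mg/g dots lie above the 3 D-camphor 41 mg/g dots.

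Among alcohol, aldehyde and farnesol dehydrogenases and aldo-keto reductases, 0 of 26 tested members were called by limma and 4 had an unadjusted p under 0.05. The diets did not overlap in 7 that were higher on EO (26.9%) and in 0 that were lower, beside 8.92% and 8.72% of all tested unigenes, with a median of 0.19. The 9 unigenes described as farnesol dehydrogenase, enzymes that oxidise farnesol on the way to juvenile hormone in mosquitoes, were picked out after their values were seen. All 9 had positive differences, from 0.32 to 2.29 with a median of 0.63, and 4 did not overlap, where the share over all tested unigenes is 8.92%. Their summed TPM did overlap, at 2770, 3420 and 4320 on EO and 2930, 1600 and 2920 on D-camphor. The members with the smallest p were TRINITY_DN213_c0_g2, an aldo-keto reductase, with 39.8, 42.8 and 41.3 TPM on EO and 32.0, 26.9 and 30.5 TPM on D-camphor (0.46 ± 0.13; limma, adjusted p = 0.261), and TRINITY_DN591_c0_g1, a carbonyl reductase with a difference of -0.46 ± 0.20.

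In the conjugating and exporting classes, limma called 0 members. No glutathione S-transferase was called among 18 tested (4 with an unadjusted p under 0.05), 4 (22.2%, beside 8.92% of all tested) were higher without overlap and the median was 0.10. TRINITY_DN5947_c0_g1, described as glutathione S-transferase e2, an epsilon class enzyme, had 71.4, 60.3 and 87.6 TPM on EO and 49.6, 44.0 and 42.4 TPM on D-camphor (0.67 ± 0.21; limma, adjusted p = 0.284). The microsomal TRINITY_DN1572_c0_g1 had 44.4, 35.8 and 39.03 TPM on EO and 31.4, 26.7 and 27.4 TPM on D-camphor (0.46 ± 0.12; limma, adjusted p = 0.196). Both were separated between the diets by less than 2-fold. At the lower doses both lay the other way without overlap, at -0.84 ± 0.21 and -0.28 ± 0.12, and limma called neither. There 17.6% of all tested unigenes were lower on EO without overlap.

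Of 14 UDP-glycosyltransferases tested, which attach sugars, 0 were called, 1 had an unadjusted p under 0.05 and the median was 0.18. TRINITY_DN4514_c0_g3 had a mean of 14.5 ± 1.26 TPM (SD, n = 3) on EO and 9.52 ± 1.02 TPM on D-camphor, and TRINITY_DN3516_c0_g1 had 8.63 ± 0.778 and 11.5 ± 0.771 TPM. The 23 carboxylesterases tested, which split esters, had a median of 0.04, with 3 at an unadjusted p under 0.05. TRINITY_DN13084_c0_g3, esterase B1-like, had 15.5, 19.8 and 12.8 TPM on EO and 10.8, 4.80 and 7.49 TPM on D-camphor, and TRINITY_DN357_c1_g1, esterase FE4-like, had 7.78 ± 2.59 and 3.11 ± 1.88 TPM. At the lower doses TRINITY_DN357_c1_g1 lay the other way without overlap (-1.57 ± 0.46, not called). The 40 ABC transporters tested had a median of -0.05, with 1 at an unadjusted p under 0.05. TRINITY_DN461_c0_g1, of subfamily B, had 19.2 ± 2.46 and 11.3 ± 2.68 TPM, and TRINITY_DN956_c0_g1, described as a multidrug resistance-associated protein, 8.13 to 11.2 TPM on EO and 6.53 to 7.62 TPM on D-camphor. The 4 sulfotransferases tested, all at low levels, overlapped between the diets, among them TRINITY_DN5020_c0_g1 and TRINITY_DN40380_c0_g1 with differences of -1.54 ± 0.78 and -0.82 ± 0.43.

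**Figure D4:**
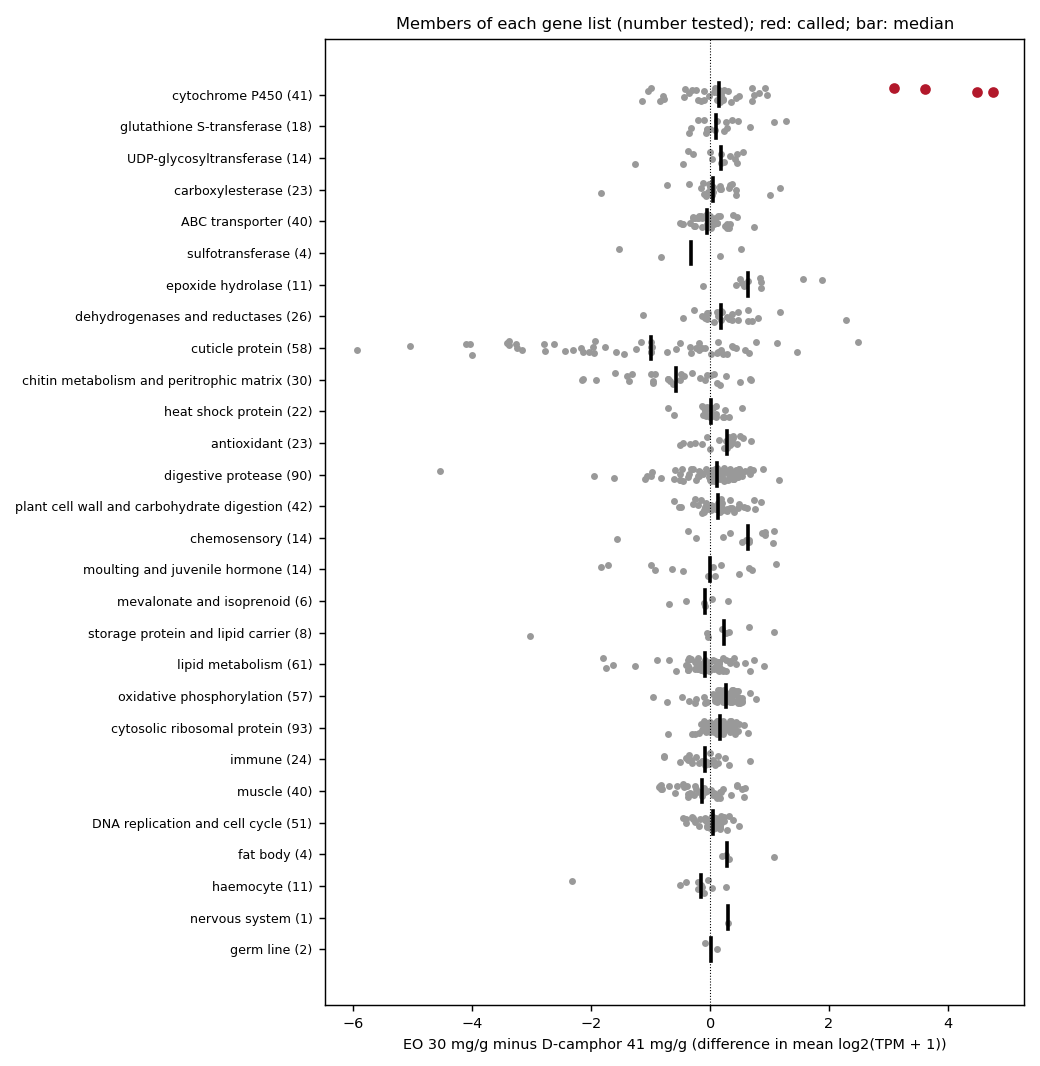
Each dot is a tested member of 1 of 28 gene lists, placed on the x axis by its difference between EO 30 mg/g and D-camphor 41 mg/g on the log2(TPM + 1) scale; the number of tested members is in brackets, black bars are list medians and red dots are called members. The 4 called P450s lie between 3.09 and 4.75, epoxide hydrolases have a median of 0.63 and cuticle proteins reach down to -5.94.

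Antioxidant enzymes, which remove peroxides and superoxide, had a median of 0.29. Of 23 tested, 0 were called by limma, 7 had an unadjusted p under 0.05 (11.3% over all tested unigenes), 7 (30.4%) were higher without overlap and 3 (13.0%) were lower, beside 8.92% and 8.72% of all tested. TRINITY_DN6_c0_g2, a mitochondrial peroxiredoxin, had 137, 120 and 126 TPM on EO and 93.8, 109 and 91.7 TPM on D-camphor (0.38 ± 0.13; limma, adjusted p = 0.339). TRINITY_DN23732_c0_g1, a copper-zinc superoxide dismutase, had 511, 443 and 505 TPM on EO and 428, 369 and 396 TPM on D-camphor (0.29 ± 0.10; limma, adjusted p = 0.339). These differences were below 2-fold though the diets did not overlap. Heat shock proteins, chaperones of damaged proteins, had a median of 0.01 over 22 tested members, 0 of them called by limma and 2 at an unadjusted p under 0.05. TRINITY_DN11440_c0_g1, an Hsp70-like unigene, had 15.7 ± 2.27 TPM on EO and 10.5 ± 0.819 TPM on D-camphor, and TRINITY_DN1799_c0_g1, Hsp68-like, had 0.613 ± 0.119 and 1.64 ± 0.0755 TPM.

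Cuticle protein unigenes were the most scattered list, with differences from -5.94 to 2.49 and a median of -0.99 over 58 tested members. None was called by limma, 5 had an unadjusted p under 0.05, and 4 (6.90%) were lower on EO without overlap, which is below the 8.72% of all tested unigenes. Their summed TPM was 58000, 14700 and 13900 on EO and 10900, 57300 and 23000 on D-camphor, so 1 library in each diet was several times above the others. Those were EO replicate 1 and D-camphor replicate 2, both among the libraries that stood apart, and they held the highest value of their diet in 50 and 47 of the 58 members. Without the libraries that stood apart, the median was -1.46 and 30 members were lower on EO without overlap, beside 16.1% of all tested unigenes, and 0 were called. Untreated larvae had 8010, 4250 and 7490 TPM.

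The cuticle members with the smallest p were near 0 on EO. TRINITY_DN18636_c0_g1, described as adult-specific cuticular protein ACP-20-like, was listed at 0, 0 and 0.09 TPM on EO and at 0.96, 6.59 and 3.94 TPM on D-camphor (-2.03 ± 0.40; limma, adjusted p = 0.0938). TRINITY_DN1987_c0_g3, larval cuticle protein III/IV-like, had 3.84, 0.11 and 0.18 TPM on EO and 23.1, 491 and 124 TPM on D-camphor (-5.94 ± 1.26; limma, adjusted p = 0.121), with 7.55 TPM in untreated replicate 2. D-camphor replicate 2 was the highest of the 6 libraries in both. In the list of chitin metabolism and the peritrophic matrix, the chitin and mucin sheet that lines the gut, limma called 0 of 30 tested members, 6 had an unadjusted p under 0.05, and 6 were lower on EO without overlap (20%) against 1 that was higher (3.33%), beside 8.72% and 8.92% of all tested unigenes. A pair of mucins had the smallest p: TRINITY_DN270_c0_g1 had 2.83, 5.27 and 5.56 TPM on EO and 9.55, 9.19 and 10.8 TPM on D-camphor (-1.0 ± 0.25; limma, adjusted p = 0.196), and TRINITY_DN1323_c1_g1 lay the other way with 52.0, 69.9 and 64.2 TPM against 39.9, 34.01 and 41.1 TPM (0.67 ± 0.21; limma, adjusted p = 0.286).

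**Figure D5:**
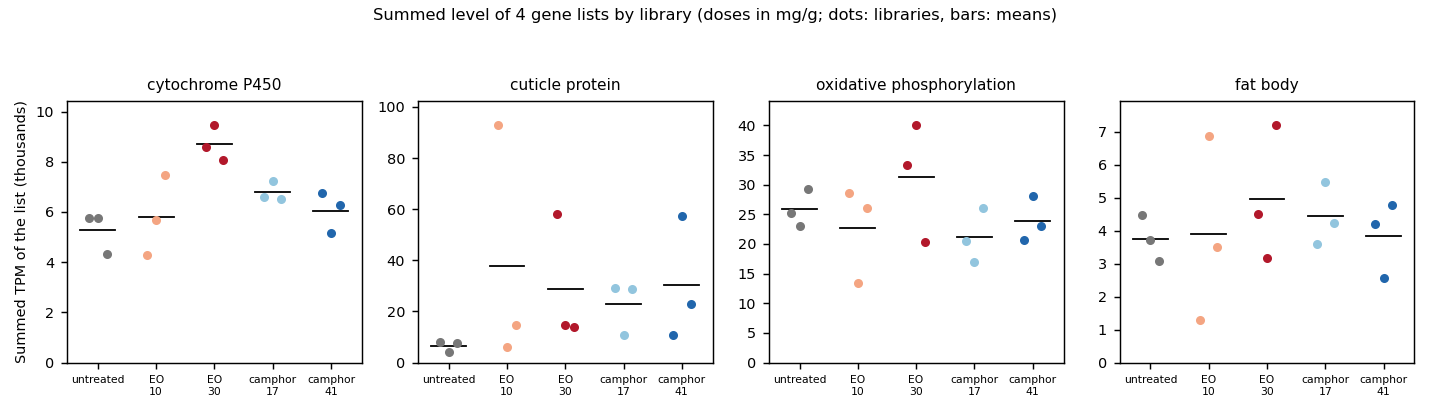
Summed TPM (axis divided by 1000) of 4 gene lists in every library, with the 5 groups on the x axis, dots for libraries and bars for group means; all axes start at 0. The P450 sum separates EO 30 mg/g (8580, 9470 and 8060 TPM) from D-camphor 41 mg/g (6760, 5150 and 6260 TPM), while the cuticle, oxidative phosphorylation and fat body sums overlap. The P450 sum includes the 4 called members, with 2410, 2940 and 1960 TPM on EO 30 mg/g and 249, 141 and 153 TPM on D-camphor 41 mg/g.

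In the list of moulting and juvenile hormone, members lay on both sides: limma called 0 of 14 tested, 4 had an unadjusted p under 0.05 and the median was 0.00. TRINITY_DN309_c0_g2 and TRINITY_DN39433_c0_g1 are both described as takeout-like, after a Drosophila protein of a family that resembles juvenile hormone binding proteins. The former had 1.27, 0.38 and 0.26 TPM on EO and 4.17, 5.52 and 3.10 TPM on D-camphor (-1.71 ± 0.48). The latter had 3.07, 2.05 and 1.87 TPM on EO and 0.60, 0.29 and 0.74 TPM on D-camphor (1.1 ± 0.39). Thus 2 unigenes with the same description differed in opposite directions, neither of them called by limma, with adjusted p of 0.247 and 0.339. Mevalonate pathway enzymes, which make the precursors of juvenile hormone and other isoprenoids, had a median of -0.09 over 6 tested members. TRINITY_DN16583_c0_g1 (isopentenyl-diphosphate isomerase) had 15.4 to 19.5 TPM on EO and 11.6 to 15.3 TPM on D-camphor, and TRINITY_DN5147_c0_g1 (diphosphomevalonate decarboxylase) had 1.15 ± 0.438 and 2.50 ± 0.785 TPM.

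Chemosensory unigenes, which carry or detect odorants and other small lipophilic molecules, had a median of 0.63 over 14 tested members, 0 of them called by limma and 5 at an unadjusted p under 0.05. Of the 9 odorant binding proteins, singled out after their values were seen, 8 had a positive difference and 3 of those did not overlap, where 8.92% of all tested unigenes were higher without overlap. Summed TPM of these 9 did overlap, at 2580, 3190 and 3970 on EO and 2330, 2110 and 2980 on D-camphor. Untreated larvae had 3070, 4130 and 5490 TPM. TRINITY_DN1834_c0_g1, odorant binding protein 8, had 2.35, 2.82 and 1.22 TPM on EO and 0.57, 0.08 and 0.83 TPM on D-camphor (1.06 ± 0.33; limma, adjusted p = 0.292). TRINITY_DN17576_c0_g1, general odorant-binding protein 70, was the exception with 0.95, 0.57 and 0.40 TPM on EO and 3.10, 3.97 and 4.41 TPM on D-camphor (-1.56 ± 0.55; limma, adjusted p = 0.339). It also stood at 5.52 TPM in untreated replicate 2. Without the libraries that stood apart, the median of the list was 0.28.

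Digestive enzymes were abundant in both diets. Among 90 proteases tested, limma called 0, 14 had an unadjusted p under 0.05, 18 (20%) were higher and 11 (12.2%) lower on EO without overlap, beside 8.92% and 8.72% of all tested unigenes, and the differences ran from -4.55 to 1.16 with a median of 0.11. TRINITY_DN15728_c0_g1, chymotrypsin-2-like, had 23.8, 24.4 and 24.9 TPM on EO and 16.8, 15.2 and 17.9 TPM on D-camphor (0.53 ± 0.11; limma, adjusted p = 0.109), and TRINITY_DN7412_c0_g1, a trypsin, had 94.0, 90.0 and 164 TPM on EO and 183, 239 and 177 TPM on D-camphor (-0.82 ± 0.23; limma, adjusted p = 0.249). Enzymes that break down plant cell walls and carbohydrates had a median of 0.14 over 42 tested members, with 0 called by limma and 7 at an unadjusted p under 0.05. A pair of polygalacturonases, which cut pectin, had the smallest p: TRINITY_DN15820_c0_g1 had 1237, 1189 and 1489 TPM on EO and 674, 950 and 740 TPM on D-camphor (0.74 ± 0.17; limma, adjusted p = 0.15), and TRINITY_DN13229_c0_g1 had 36.1, 33.8 and 36.1 TPM against 22.8, 18.1 and 17.01 TPM (0.85 ± 0.25; limma, adjusted p = 0.28). For TRINITY_DN15820_c0_g1 the untreated libraries, at 1021 to 1145 TPM, lay above the D-camphor libraries and below the EO ones.

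Storage proteins and lipid carriers, made mainly by the fat body, had a median of 0.23 over 8 tested members and 1 at an unadjusted p under 0.05. The hexamerin-like storage protein TRINITY_DN25053_c1_g1 (arylphorin-like) had 456, 337 and 680 TPM on EO and 231, 203 and 239 TPM on D-camphor (1.07 ± 0.43; limma, adjusted p = 0.384). TRINITY_DN42940_c0_g1, apolipoprotein D-like, had 1.96, 0.40 and 16.5 TPM on EO and 40.6, 30.3 and 29.5 TPM on D-camphor (-3.03 ± 1.57; limma, adjusted p = 0.483), but its untreated libraries ran from 0.34 to 56.3 TPM. Lipid metabolism had a median of -0.08 over 61 tested members, with 4 at an unadjusted p under 0.05. Its lipases TRINITY_DN5789_c0_g3 and TRINITY_DN7266_c0_g1 had differences of 0.91 ± 0.24 and -1.75 ± 0.66. Limma called 0 members of either list.

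Oxidative phosphorylation, the mitochondrial chain that makes ATP, was slightly higher on EO in most members. Of 57 tested members 48 had a positive difference, 20 (35.1%) were higher on EO without overlap and 3 were lower, beside 8.92% and 8.72% of all tested unigenes, and the median was 0.27. None was called by limma, and 15 had an unadjusted p under 0.05. A pair of complex I subunits had the smallest p. TRINITY_DN7211_c0_g1 had 81.6, 83.0 and 71.5 TPM on EO and 63.7, 53.6 and 54.1 TPM on D-camphor (0.46 ± 0.12; limma, adjusted p = 0.196), and TRINITY_DN6294_c0_g1 had 108, 94.6 and 100 TPM against 80.2, 81.3 and 74.7 TPM (0.35 ± 0.09; limma, adjusted p = 0.214). Their untreated libraries, at 60.4 to 66.0 and 81.4 to 92.9 TPM, lay below the EO libraries. At the lower doses 0 members of the list were higher on EO without overlap and 8 were lower, where 1.79% and 17.6% of all tested unigenes were.

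Cytosolic ribosomal proteins had a median of 0.17 over 93 tested members, of which 76 had a positive difference and 11 (11.8%) were higher on EO without overlap, near the background share. TRINITY_DN16907_c0_g1 (60S L17) had 453, 375 and 428 TPM on EO and 241, 295 and 275 TPM on D-camphor (0.63 ± 0.16; limma, adjusted p = 0.196), and TRINITY_DN3899_c0_g1 (40S S26) had 1120 ± 132 and 834 ± 82.0 TPM. Limma called 0 of the list, and 4 had an unadjusted p under 0.05. DNA replication and cell cycle members were centred near 0, with a median of 0.05 over 51 tested and 4 at an unadjusted p under 0.05. TRINITY_DN4983_c0_g1, the replication clamp PCNA, had 21.3 to 28.7 TPM on EO and 17.8 to 18.1 TPM on D-camphor, and TRINITY_DN9306_c0_g1, a subunit of the origin recognition complex, had 2.91 ± 0.754 and 1.78 ± 0.44 TPM.

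Summed levels of tissue markers overlapped between the diets, and in whole bodies fewer cells of a type and less RNA per cell cannot be told apart. Summed TPM of the fat body markers was 4500, 3170 and 7210 on EO and 4190, 2570 and 4790 on D-camphor, and its member TRINITY_DN37624_c1_g1 (arylphorin-like), had 1990 ± 643 and 1570 ± 264 TPM. Muscle markers summed to 36800, 34100 and 26700 TPM on EO and 31300, 31300 and 29000 TPM on D-camphor. Of the 40 muscle members tested 0 were called by limma, although 11 had an unadjusted p under 0.05, with TRINITY_DN40252_c0_g1, a myosin light chain, at 2.13 ± 0.236 and 1.12 ± 0.444 TPM and TRINITY_DN3128_c0_g1, titin-like, at 17.9 ± 4.77 and 27.0 ± 3.17 TPM. Of 11 haemocyte markers tested, limma called 0 and 1 had an unadjusted p under 0.05; they summed to 224, 280 and 291 TPM on EO and 449, 385 and 254 TPM on D-camphor, with TRINITY_DN28788_c0_g1, an integrin beta, at 21.4 ± 0.393 and 17.6 ± 0.822 TPM and TRINITY_DN7223_c0_g1, a phenoloxidase of the melanin reaction, at 64.8 ± 14.2 and 93.8 ± 26.8 TPM. Nervous system and germ line markers summed to 7.12 to 7.89 and 23.2 to 34.5 TPM on EO and to 5.90 to 7.15 and 28.2 to 29.7 TPM on D-camphor. Their tested members were TRINITY_DN40188_c0_g1 (syntaxin, 0.30 ± 0.14), TRINITY_DN4589_c0_g1 (vasa, 0.12 ± 0.12) and TRINITY_DN571_c0_g2 (a piwi-like protein, -0.08 ± 0.19). Immune members had a median of -0.08 over 24 tested, 0 of them called by limma and 1 at an unadjusted p under 0.05, and the pattern recognition proteins TRINITY_DN25775_c0_g1 and TRINITY_DN5761_c1_g1, which bind beta-1,3-glucan of microbes, had differences of -0.77 ± 0.31 and -0.38 ± 0.20.

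TPM is a share of a fixed total, so the most abundant unigene was also examined, after its values were seen. TRINITY_DN31894_c0_g1, described as a calponin homology domain-containing protein, took 3.67%, 5.71% and 6.06% of all TPM on EO and 9.23%, 7.91% and 9.14% on D-camphor. The D-camphor libraries were all higher, at a ratio of 1.70 between the means, but the unigene was not called (limma, adjusted p = 0.282). Scaling the libraries by the median of ratios instead of the total gave 19 calls, which included the same 16.

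At the lower doses the 2 additives, 10 mg/g of EO and 17 mg/g of D-camphor, were compared in the same way over the same unigenes. Limma called 1 unigene (0.00804%; 2 without EO 30 mg/g replicate 2), with 1222 (9.82%) at an unadjusted p under 0.05. The call was the P450 TRINITY_DN9219_c0_g1, which also had the smallest p at the higher doses. It stood at 55.7, 57.6 and 89.6 TPM on EO and at 7.95, 11.01 and 5.58 TPM on D-camphor, a difference of 2.91 ± 0.29 (limma, adjusted p = 0.00327). The other called P450s did not pass at the lower doses, although their diets did not overlap: TRINITY_DN12993_c0_g1 had 94.0, 77.0 and 343 TPM on EO against 51.0, 37.0 and 41.5 TPM (1.64 ± 0.51; limma, adjusted p = 0.356). TRINITY_DN1085_c0_g1 had 142, 166 and 371 TPM against 77.0, 71.2 and 66.0 TPM (1.52 ± 0.35; limma, adjusted p = 0.219), and TRINITY_DN32261_c0_g1 had 41.3, 37.1 and 138 TPM against 28.5, 27.3 and 17.4 TPM (1.29 ± 0.57; limma, adjusted p = 0.484). In each of these, EO 10 mg/g replicate 3 was well above the other two.

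Of the 16 unigenes called at the higher doses, 12 had a difference of the same sign at the lower doses. No share over all tested unigenes was taken for this count. TRINITY_DN2011_c1_g1 was listed at 0 in all libraries of the lower doses. Of those lower on EO, TRINITY_DN16997_c0_g1, TRINITY_DN1624_c0_g1 and TRINITY_DN2083_c0_g1 kept the sign at -0.12, -0.16 and -0.10, near the median over all tested unigenes. TRINITY_DN40441_c0_g1 and TRINITY_DN21496_c0_g1 did not, at 0.0 and 0.22. At the lower doses 7 of the 11 higher on EO and 0 of the 5 lower on EO did not overlap either. Across all tested unigenes, non-overlapping values at the lower doses were far more often lower on EO (17.6%) than higher (1.79%), with a median of -0.14, which median-of-ratios scaling shifted to 0.02. Some uncalled named unigenes lay in opposite directions without overlap at the 2 dose levels. Beside those given above, they were TRINITY_DN1323_c1_g1 (-0.51 at the lower doses), TRINITY_DN11440_c0_g1 (-0.31), TRINITY_DN7211_c0_g1 (-0.28) and TRINITY_DN25775_c0_g1 (0.63). The change in the difference from the lower to the higher doses was tested directly. Limma called 0 unigenes for it, with 1452 (11.7%) at an unadjusted p under 0.05, and 16 without D-camphor 41 mg/g replicate 1. For TRINITY_DN9219_c0_g1 the difference was larger at the higher doses by 1.84 on the log2 scale (limma, adjusted p = 0.139). For TRINITY_DN2305_c0_g1 it was larger by 1.47 (limma, adjusted p = 0.0966), with 76.2, 69.5 and 94.6 TPM on EO 10 mg/g and 69.1, 75.9 and 83.0 TPM on D-camphor 17 mg/g. For none of the 16 was the change between the dose pairs itself called.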

How the data were processed

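RNA was extracted from whole larvae with TRIzol and libraries were prepared with NEBNext Ultra reagents, per the labels. The authors deposited TPM: levels divided by transcript length and scaled so that every library has the same total. No assembler, aligner, counting method or strand setting is given in the sources used here. Read depth, and so counting precision, is unknown. Titles and table columns carry the same letter and replicate number, which linked them, and 0 columns were left unused. No pair of libraries held identical values.

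Values were analysed as log2(TPM + 1). The unigenes whose mean over the 6 libraries compared reached 1 TPM entered limma 3.58.1 (R 4.3.3) with a variance trend, 1 mean per group and all 15 libraries in the fit, which gave 10 residual degrees of freedom and 2.13 prior ones. All p-values are two-sided, with Benjamini-Hochberg adjustment at 0.05. The comparisons were EO 30 mg/g minus D-camphor 41 mg/g, EO 10 mg/g minus D-camphor 17 mg/g, and the difference between these. Summaries used Python 3.11.15, pandas 2.3.3 and numpy 2.4.6. On simulated data for the comparison at the higher doses, with 50 changed unigenes of each size among 12442, the method recovered 50% of 2-fold, 82% of 4-fold and 96% of 8-fold changes and made 9 false calls. The changed unigenes were drawn only from those above the lowest levels, so the rates do not cover unigenes near the level filter. The simulated noise was normal and independent, with no libraries that stood apart. The real data also gave far fewer calls than were simulated, so these rates may not carry over.

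Named unigenes are the called ones with non-overlapping values (up to 15 in each direction), up to 4 called members of each list, uncalled ones of the smallest p up to 10 in a direction with fewer than 10 calls, and the 2 members of the smallest p in lists without a call. Members of 28 lists were found by words in the descriptions. The comparison, lists and search words were chosen with earlier results of these data known, and search words were revised after the table was seen. A description is that of a protein of some other species, so it shows likeness rather than function. Alternatives were a pseudocount of 0.1, no filter, filters at 5 TPM or over all libraries, median-of-ratios scaling, a replicate block, array weights, a fit to the groups contrasted alone, and leaving out each library or the 3 that stood apart.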

Additional observations from a re-analysis of the deposited data

How the results depend on the processing

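The number of unigenes called between EO 30 mg/g and D-camphor 41 mg/g, 16, became 10 with a pseudocount of 0.1 (8 of them among the 16), 6 in a fit to the 6 libraries alone (4 among the 16), 4 without the 3 libraries that stood apart (3 among the 16) and from 9 to 25 with 1 library left out. It stayed between 13 and 22 with no filter, other filters, median-of-ratios scaling or array weights. The causes of these changes were not tested, beyond the fewer libraries in some fits. At the lower doses the single call became 2 with a pseudocount of 0.1, 6 with no filter, 9 with array weights, 0 in a fit to the groups contrasted alone, 0 without the 3 libraries that stood apart and from 1 to 2 with 1 library left out. For the change in the difference between dose pairs, 0 calls became 1 with a pseudocount of 0.1, 2 with no filter, 1 in the fit to the groups contrasted alone and from 0 to 16 with 1 library left out.

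No pairing by replicate number was seen. Same-numbered libraries of the diets had correlations of -0.24, -0.17 and 0.03 between their deviations from the group means. Those with different numbers ran from -0.21 to 0.29. Deviations from a mean of 3 libraries are not independent, so these values cannot decide whether same-numbered libraries share a batch. With the replicate number as a block, 10 unigenes were called, 10 of them among the 16. Among named unigenes and settings, 1610 values kept their direction and side of the threshold, 100 lost a call, 15 gained one and 3 changed sign. Only the 16 called unigenes had a call to lose, so the 100 losses fall among them. Most of the values that kept their side belong to uncalled unigenes. All 3 changes of sign belong to the piwi-like TRINITY_DN571_c0_g2, at -0.08 in the report (-0.21 to 0.11 with 1 library left out) and 0.02 with array weights, 0.11 without EO 30 mg/g replicate 1 and 0.12 without the 3 libraries that stood apart. TPM keeps no depth, so counting error could not be set beside any value, and levels under 1 TPM are the least certain.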
